A study of Mus musculus and Homo sapiens with 12 samples.

Results

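Transcripts of 8 secreted or surface proteins of vessel growth were followed in PFKFB4-knockout and wild-type breast cancer cells. These were the inhibitor SERPINF1, the growth factors VEGFA, VEGFC, FGF2 and PDGFA, the lipoprotein lipase inhibitor ANGPTL4, and the ligand and receptor pair GAS6 and AXL. They were looked up by name among 54331 mouse and by identifier among 60233 human genes, and all 8 were present in each table, giving 16 genes. The genes were picked with differences between the EMT6 groups already known, among them those of Serpinf1 and Gas6, so the EMT6 differences are described without a test. No human value of these genes was among the earlier results at hand, although whether one played a part in the choice is not known. The MDA-MB-231 differences were therefore tested, with that limit.

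The cells were PFKFB4-knockout and wild-type EMT6, a mouse mammary carcinoma line, and PFKFB4-knockout and wild-type MDA-MB-231, a human breast carcinoma line. Each group had 3 libraries of polyadenylated RNA, 12 in all. All groups grew in high-glucose DMEM with serum and antibiotics, and no treatment is named. How PFKFB4 was disrupted, and whether a knockout line is a clone or a pool, is not stated. Column codes of the knockout libraries, A7 for EMT6 and G2 for the human line, appear in no label. Those columns were assigned by elimination, since the other 3 in each table are marked WT. The libraries are labelled biological replicates with no mention of separate cultures, so the p-values reflect spread among libraries that may be technical.

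The targeted transcript was still detected in EMT6. Pfkfb4 had 6.96, 6.87 and 8.24 TPM in the knockout, against 10.2, 10.5 and 10.4 TPM in wild type. It was lower in all knockout libraries (log2 difference -0.45, limma adjusted p = 0.00487), but not called when libraries were rescaled by median ratios (-0.23, adjusted p = 0.0618). TPM is transcript abundance per unit of gene length, scaled to a common total in each library. The transcript level does not check a frame-shifting edit, and human PFKFB4 was not analysed here.

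SERPINF1 encodes pigment epithelium-derived factor, PEDF, a secreted serpin that does not inhibit proteases and that restrains endothelial growth. VEGFA is the main ligand that drives sprouting of blood vessels and is induced in hypoxia, while VEGFC acts mainly on lymphatic endothelium. GAS6 is a vitamin K-dependent protein that activates the TAM receptors TYRO3, AXL and MERTK, and AXL is abundant on mesenchymal-like carcinoma cells. ANGPTL4 inhibits lipoprotein lipase and is induced by PPAR factors and hypoxia, and FGF2 and PDGFA are growth factors for endothelial and for mesenchymal cells.

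Promoter sequences are shown for Serpinf1, Axl and Vegfa, the 3 of these genes with the largest falls in EMT6, so that their composition can be read beside the levels. Each is the 250 bases before the RefSeq start on GRCm38.p6, minus strand, 5′ to 3′. Capitals mark ACGTG (the core bound by hypoxia-inducible factors) or GGGCGG (the GC box), read on either strand. The windows are chr11:75422624-75422873 for Serpinf1, chr7:25788734-25788983 for Axl and chr17:46032378-46032627 for Vegfa.
Serpinf1: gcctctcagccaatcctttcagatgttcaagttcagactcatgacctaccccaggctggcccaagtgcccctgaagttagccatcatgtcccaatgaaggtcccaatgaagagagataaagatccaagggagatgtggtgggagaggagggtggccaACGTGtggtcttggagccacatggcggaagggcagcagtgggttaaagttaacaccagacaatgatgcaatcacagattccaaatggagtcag
Axl: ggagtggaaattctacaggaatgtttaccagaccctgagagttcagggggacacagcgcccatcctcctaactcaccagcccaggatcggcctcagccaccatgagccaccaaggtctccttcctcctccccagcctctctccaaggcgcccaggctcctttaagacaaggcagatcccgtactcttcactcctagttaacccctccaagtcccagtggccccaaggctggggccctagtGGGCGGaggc
Vegfa: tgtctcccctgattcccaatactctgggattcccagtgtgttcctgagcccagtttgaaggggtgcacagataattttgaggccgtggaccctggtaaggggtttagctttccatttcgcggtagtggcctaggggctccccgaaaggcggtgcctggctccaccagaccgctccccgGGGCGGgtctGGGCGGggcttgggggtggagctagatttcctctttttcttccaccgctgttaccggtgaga

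The Serpinf1 window held 1 ACGTG at positions -93 to -89 from the RefSeq start, and no GC box, with 51.6% G or C and 2 CpG dinucleotides. The GENCODE M21 annotation begins this minus-strand gene at 75422701, inside the window and before the RefSeq start, so the positions depend on the start used. The Gas6 window, not printed, had 4 GC boxes in its last 66 bases and 10 CpG dinucleotides. Vegfa had 2 GC boxes in the printed window and Axl had 1. GCGTG, a second form of the same hypoxia core, the AP-1 letters TGANTCA and the TATA letters TATAAA were also searched on both strands and matched in none of these 4 windows. The window of a second Vegfa start listed in the table, not printed, held 1 ACGTG at positions -211 to -207 from that start, 1 GCGTG at -218 to -214, and 1 GC box. Among 32851 RefSeq windows of the same length, 16.6% held ACGTG, 28.2% GCGTG, 6.75% TGANTCA, 12.4% TATAAA and 32.7% GGGCGG. Their median was 52.4% G or C and 6 CpG dinucleotides. Of the 8 genes, 7 had a sequence in that table, and Angptl4 had none. Pdgfa also has more than 1 start in the table. A match describes letters and not a bound site.

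In EMT6 the knockout libraries had almost no Serpinf1 transcript, less Vegfa (50.5% of wild type) and Axl (43.6%), more Gas6 and somewhat more Vegfc. Serpinf1 (ENSMUSG00000000753, chromosome 11, 75409769 to 75422701 on GRCm38) stood at 0.67, 0.63 and 1.28 TPM in the knockout libraries, against 72.9, 73.2 and 78.0 TPM in the wild-type libraries. The groups were far apart, and the knockout mean of 0.859 ± 0.363 TPM was 1.15% of the wild-type mean of 74.7 ± 2.9 TPM (SD, n = 3 each). The difference in log2(TPM + 1) was -5.36, the largest fall on that scale among 13499 tested genes, for which the median was -0.21. That rank depends on the scale. As a ratio of knockout to wild-type mean, Padi4 (0.00108) and Col3a1 (0.00123) fell further than Serpinf1 (0.0115). With a pseudocount of 0.1 the difference of Serpinf1 was -6.35, since the log2(TPM + 1) scale understates changes of low genes. Counted from the highest level, Serpinf1 ranked 12202 among the tested genes in the knockout and 1561 in wild type. In bulk RNA, fewer cells expressing a gene and less RNA per cell cannot be told apart.

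Vegfa (ENSMUSG00000023951, chromosome 17, 46016993 to 46032369) had 23.6, 29.8 and 23.6 TPM in the knockout, against 53.2, 47.4 and 51.9 TPM in wild type. All knockout libraries lay below all wild-type libraries, with a mean 50.5% of that in wild type. The log2 difference was -0.97, and -0.74 under median-ratio scaling of the libraries. Because all Vegfa isoforms are summed in a gene-level value, and 8 coding transcripts are annotated, the values do not tell isoforms apart.

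Vegfc, the lymphatic ligand (ENSMUSG00000031520, chromosome 8, 54077606 to 54187096), was low but moved the other way. It stood at 3.15, 3.35 and 2.98 TPM in the knockout, against 2.11, 2.31 and 2.1 TPM in wild type. The groups did not overlap, and the log2 difference was 0.39. Within the VEGF family of Vegfa, Vegfb, Vegfc, Vegfd and Pgf, Vegfa made up 35.1, 41.4 and 35.4% of the summed TPM in the knockout, against 58.7, 54.3 and 54.4% in wild type. The sum itself was 68.6 ± 2.84 TPM in the knockout and 91.2 ± 4.17 TPM in wild type (SD, n = 3 each). Vegfb, another ligand of the family, had 23.1 TPM in the knockout and 21.3 TPM in wild type and was not called (limma adjusted p = 0.271). Vegfd, a second lymphatic ligand, had 16.5 TPM in the knockout and 14.9 TPM in wild type and was not called either (limma adjusted p = 0.131).

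Gas6 (ENSMUSG00000031451, chromosome 8, 13465374 to 13494490) had 8.27, 7.59 and 6.8 TPM in the knockout, against 1.65, 1.96 and 2.2 TPM in wild type. Every knockout library was above every wild-type library. The means were 7.55 ± 0.737 TPM in the knockout and 1.94 ± 0.275 TPM in wild type (SD, n = 3 each), a log2 difference of 1.54 and, under median-ratio scaling, 1.72. Among all tested genes this rise ranked 93.

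Its receptor Axl (ENSMUSG00000002602, chromosome 7, 25757273 to 25788705) was the most abundant of the 8 transcripts in both groups. Axl had 61.4, 90.7 and 71.1 TPM in the knockout, against 199.1, 155 and 157 TPM in wild type. No knockout library reached the lowest wild-type library, and the log2 difference was -1.19, and -0.96 under median-ratio scaling. Ligand and receptor differed in opposite directions. Gas6 TPM amounted to 10.5 ± 2.67% of Axl TPM in the knockout and 1.16 ± 0.299% in wild type (SD, n = 3 each).

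The other 3 genes had small differences or wide spread. Angptl4 (ENSMUSG00000002289, chromosome 17, 33773750 to 33781830) had 18.5, 19.3 and 18.3 TPM in the knockout, against 23, 21.9 and 21.6 TPM in wild type. These groups did not overlap in TPM, but the log2 difference of -0.24 lay close to the median of all tested genes and was -0.01 under median-ratio scaling. Pdgfa (ENSMUSG00000025856, chromosome 5, 138976014 to 138997370) had 25, 22.7 and 24.9 TPM in the knockout, against 24.5, 29.5 and 26.2 TPM in wild type. Its groups overlapped, and its log2 difference was -0.14 in TPM and 0.09 under median-ratio scaling.

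Fgf2 (ENSMUSG00000037225, chromosome 3, 37348346 to 37410108) had 0.178, 3.57 and 2.57 TPM in the knockout, against 1.95, 0.262 and 3.73 TPM in wild type. Knockout replicate 1 and wild-type replicate 2 were near 0 while the other 4 libraries were not, so the spread within each group exceeded the difference between them. Its exons share 640 nt with Nudt6 on the opposite strand. Nudt6 did not follow this pattern, with 5.1, 5.67 and 4.32 TPM in the knockout, against 3.14, 3.35 and 5.51 TPM in wild type. How strand was set in the counting is not given in the sources used here, so reads of the pair cannot be told apart. Fgf2 also shares 255 nt with Gm43439 on the same strand, which was listed at 0 in all 6 libraries. Pdgfa shares 813 nt with the antisense gene 6330403L08Rik. That gene had 1.04, 1.10 and 1.19 TPM in the knockout, against 1.40, 1.28 and 1.36 TPM in wild type. Its groups did not overlap, but it was not called (limma adjusted p = 0.0890). Gas6 shares 34 nt with Tmem255b, which was listed at 0 in all 6 libraries.

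Counted together, 4 of the 8 genes lay wholly lower and 2 wholly higher in the EMT6 knockout. Among all tested genes the groups did not overlap for 48.3% in the lower and 17.9% in the higher direction, and nothing is read from the counts of genes chosen on these libraries. Median-ratio scaling moved the median of all tested genes from -0.21 to -0.01 on the log2 scale. Serpinf1, Vegfa, Axl, Gas6 and Vegfc kept their directions under it.

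**Figure D1:**
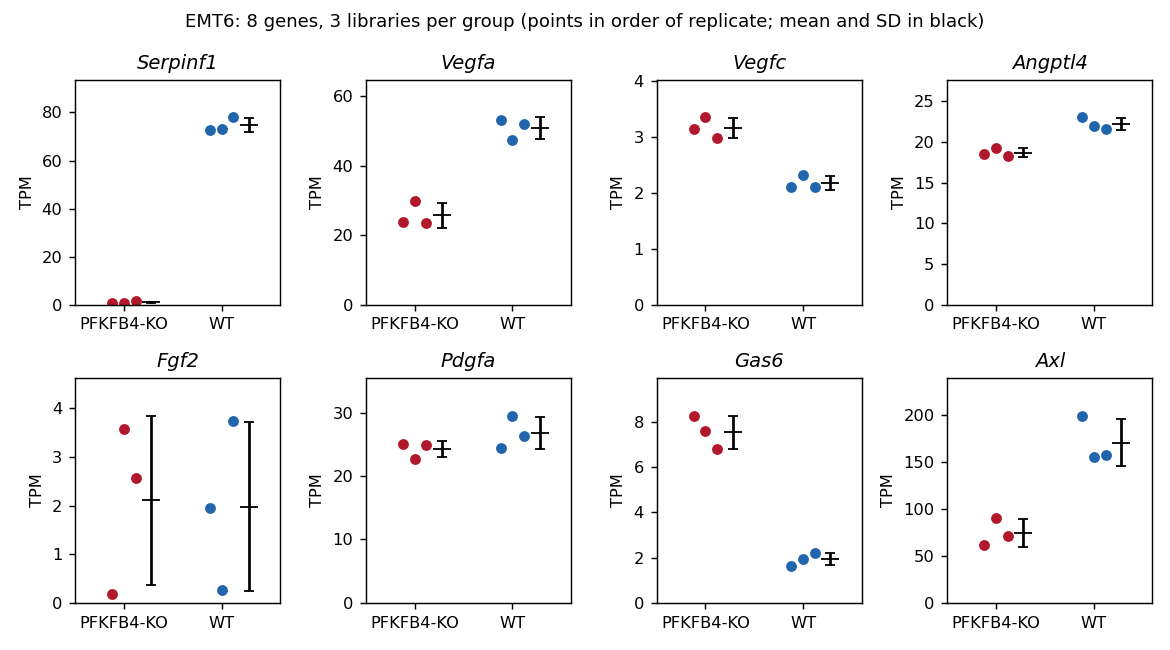
TPM of the 8 genes in EMT6, with PFKFB4-knockout libraries in red and wild-type libraries in blue, and the mean with SD (n = 3) in black. Each panel has its own axis from 0. Serpinf1 lies at 0.63 to 1.28 TPM in the knockout and at 72.9 to 78.0 TPM in wild type, and Fgf2 is spread from near 0 to above 3.5 TPM within both groups.

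The order of levels differed between the groups. In EMT6 knockout libraries it ran from Axl through Vegfa, Pdgfa, Angptl4, Gas6, Vegfc and Fgf2 to Serpinf1. In wild type it ran from Axl through Serpinf1, Vegfa, Pdgfa, Angptl4, Vegfc and Fgf2 to Gas6. Neighbours in these orders overlapped for Vegfa and Pdgfa in the knockout, for Vegfc and Fgf2 in both groups, for Fgf2 and Serpinf1 in the knockout, and for Fgf2 and Gas6 in wild type.

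Profiles most like those of Serpinf1 and Gas6 were sought by the root mean square difference of centred log2(TPM + 1) over the 6 EMT6 libraries. For Serpinf1 they were Padi4, a protein-arginine deiminase (0.47, log2 difference -4.48), Col3a1, a fibrillar collagen chain (0.62, log2 difference -4.19), and Col6a3, a collagen VI chain (0.77, log2 difference -3.86). For Gas6 they were the secreted protease inhibitor Slpi (0.07, log2 difference 1.51), the carboxylesterase Ces1g (0.09, log2 difference 1.62) and Tmem53 (0.09, log2 difference 1.49). With 6 libraries in 2 groups, any gene with a difference of similar size has a similar profile.

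Of the 16 nearest tested neighbours of these 8 genes on the chromosome, limma called 3 higher and 5 lower at an adjusted p of 0.05. Over all tested genes 14.5% were called higher, 42.3% lower and 56.7% in either direction. Beside Serpinf1, Smyd4 lies 4063 nt away and had 5.37 TPM in the knockout and 4.32 TPM in wild type (log2 difference 0.26, limma adjusted p = 0.0857, called under median-ratio scaling). On the other side Wdr81, 18242 nt away, was called higher, with 5.64 TPM in the knockout and 4.36 TPM in wild type (0.31, limma adjusted p = 0.0136). Neither neighbour was lower in the knockout, unlike Serpinf1. Hnrnpul1, 2515 nt from Axl, was called lower in TPM (-0.36, limma adjusted p = 0.00319) but not under median-ratio scaling (-0.13, adjusted p = 0.0594). Rasa3, beside Gas6, had 19.7 TPM in the knockout and 19.2 TPM in wild type and was called only after rescaling or removal of the length trend. The other genes called were Mrps18a beside Vegfa and BC026762 beside Axl, both higher, and Neil3 beside Vegfc, Gm17251 beside Angptl4 and Gm12540 and Gm42923 beside Fgf2, all lower. Gm12540 passed the filter through its wild-type libraries alone. F630040K05Rik, Gm45553, Kank3, A430033K04Rik, 6330403L08Rik and Gm45410 were not called.

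**Figure D2:**
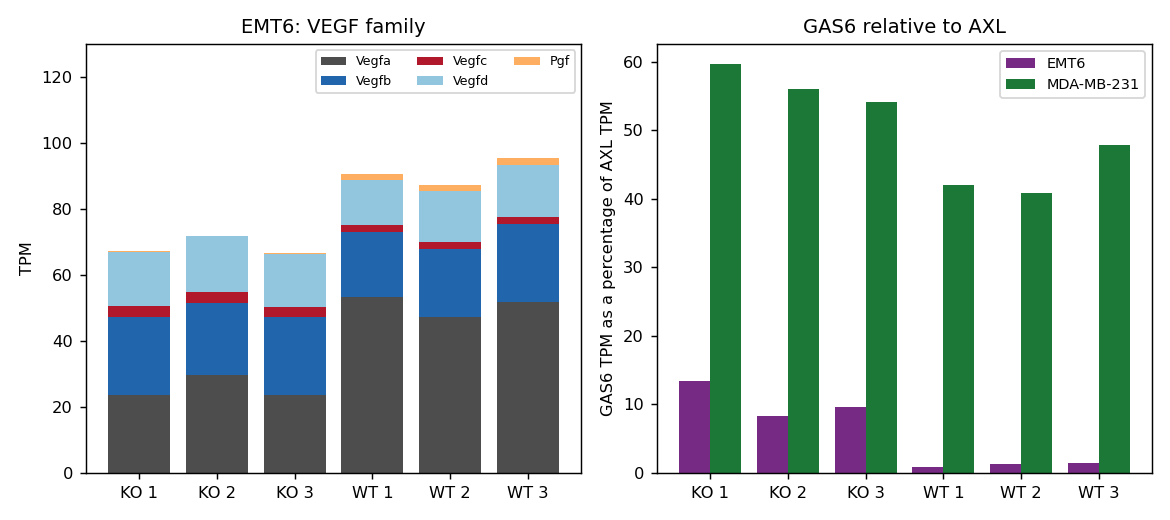
Left, stacked TPM of the 5 VEGF family genes in each EMT6 library, knockout before wild type, where Vegfa holds 35.1 to 41.4% in the knockout and 54.3 to 58.7% in wild type. Right, GAS6 TPM as a percentage of AXL TPM in each library of EMT6 and MDA-MB-231, which is higher in all knockout libraries of both lines than in their wild-type libraries.

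In the human line VEGFA, VEGFC and AXL were lower in the knockout, and GAS6 was not called. SERPINF1 and FGF2 were too low to be tested, so 6 genes were. Limma was fitted to 15299 genes with at least 0.5 TPM in 3 or more libraries. It called 12.1% of them lower and 7.97% higher at an adjusted p of 0.05, against 3 lower and 0 higher among these 6, also 0 higher by unadjusted limma p under 0.05. Groups did not overlap for 4 of the 8 genes, 3 lower and 1 higher, and for 40.1% of all tested genes (22.9% lower, 17.2% higher).

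VEGFC (ENSG00000150630) had 17.4, 18.3 and 17.8 TPM in the knockout, against 26, 24.6 and 27.6 TPM in wild type. The groups were well separated. Its log2 difference was -0.52 ± 0.08 (SE, limma adjusted p = 0.00754), with a 95% interval of -0.72 to -0.33. The call held when each of the 6 libraries was left out in turn, with adjusted p from 0.0162 to 0.0466.

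VEGFA (ENSG00000112715) had 19.6, 24 and 26 TPM in the knockout, against 33.9, 34.6 and 29.8 TPM in wild type. All knockout libraries were lower, with 26 TPM in the highest of them against 29.8 TPM in the lowest wild-type library. The log2 difference was -0.49 ± 0.12 (SE, limma adjusted p = 0.0393). This call was lost when any library other than knockout replicate 3 was left out, with adjusted p of 0.0617 and 0.0934 without knockout replicates 1 and 2 and of 0.0609 to 0.129 without a wild-type replicate. With no filter on low genes the adjusted p was 0.0800. VEGFA TPM was 1.3 ± 0.169 times VEGFC TPM in the knockout and 1.26 ± 0.17 times in wild type (SD, n = 3 each; exact permutation test, two-sided p = 0.7).

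AXL (ENSG00000167601) was again the most abundant of the 8, at 95.4, 106.4 and 106.8 TPM in the knockout, against 141, 126 and 133 TPM in wild type. The groups did not overlap. Its log2 difference was -0.37 ± 0.08 (SE, limma adjusted p = 0.0207). The call was lost without knockout replicate 2 or wild-type replicates 1 or 3, with adjusted p = 0.0576, 0.0972 and 0.0667.

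GAS6 (ENSG00000183087) came next in level, at 56.9, 59.6 and 57.8 TPM in the knockout, against 59.3, 51.6 and 63.9 TPM in wild type. All knockout values lay inside the wild-type range. The log2 difference was 0.00 ± 0.09 (SE, limma adjusted p = 0.995), with a 95% interval of -0.22 to 0.23. GAS6 TPM was 59.6, 56 and 54.1% of AXL TPM in the knockout, against 42.1, 40.9 and 47.9% in wild type. These groups did not overlap (exact permutation test, two-sided p = 0.1, the smallest that 3 against 3 libraries allow).

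PDGFA (ENSG00000197461) had 4.81, 5.13 and 5.14 TPM in the knockout, against 4.21, 3.95 and 4.79 TPM in wild type. The knockout libraries were all slightly higher, but the log2 difference of 0.18 ± 0.11 was not called (SE, limma adjusted p = 0.28), with a 95% interval of -0.08 to 0.44. ANGPTL4 (ENSG00000167772) had 0.771, 0.447 and 0.817 TPM in the knockout, against 0.918, 0.572 and 0.557 TPM in wild type. These groups overlapped, and the difference of -0.00 was not called (limma adjusted p = 0.987, 95% interval -0.33 to 0.32).

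SERPINF1 (ENSG00000132386) was near the floor of the table at 0.457, 0.17 and 0.532 TPM in the knockout, against 0.53, 0.282 and 0.394 TPM in wild type. FGF2 (ENSG00000138685) was at 0.00433, 0 and 0.00412 TPM in the knockout, against 0.00734, 0.00606 and 0 TPM in wild type. Neither was above 1 TPM in any MDA-MB-231 library, so the strong EMT6 difference of Serpinf1 had no counterpart that could be measured. Neighbouring genes, gene families and the PFKFB4 transcript were not analysed in this line, because no table pairing human identifiers with names was used.

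**Figure D3:**
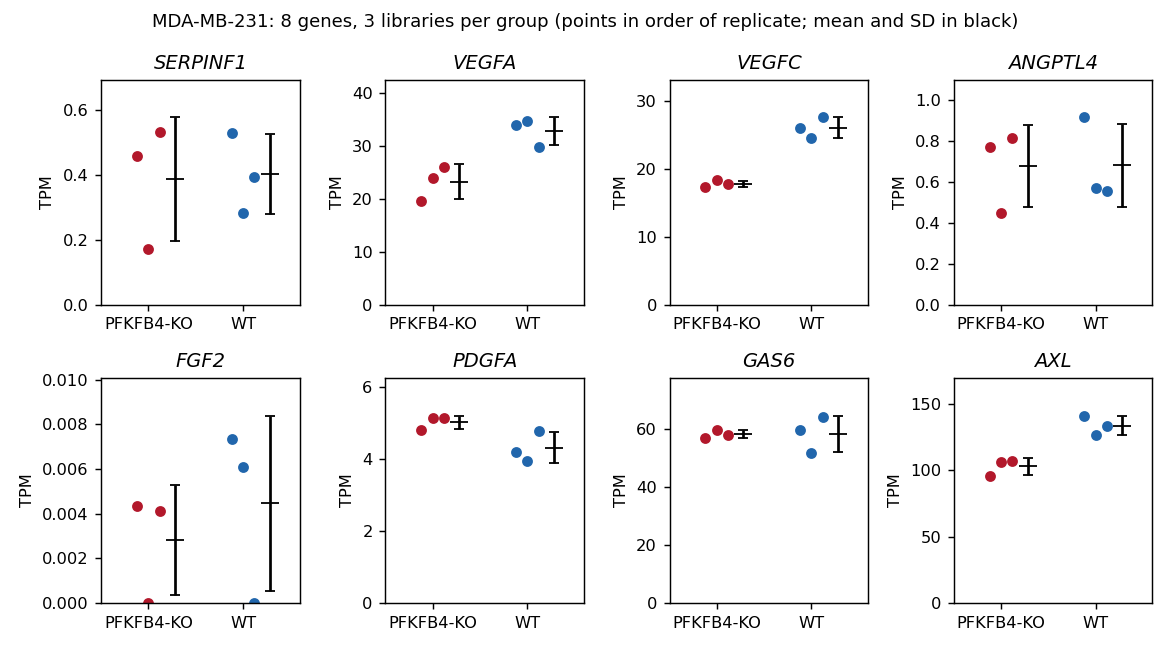
TPM of the 8 genes in MDA-MB-231, with PFKFB4-knockout libraries in red and wild-type libraries in blue, and the mean with SD (n = 3) in black. Each panel has its own axis from 0. VEGFA, VEGFC and AXL lie lower in all knockout libraries, GAS6 overlaps, and SERPINF1 and FGF2 stay below 1 TPM.

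AXL and VEGFA were lower in the knockouts of both lines, though the MDA-MB-231 call of each was lost without some single libraries. For AXL the log2 difference was -1.19 in EMT6 and -0.37 in MDA-MB-231. For VEGFA it was -0.97 in the mouse line and -0.49 in the human line. VEGFC differed in sign, at 0.39 in EMT6 and -0.52 in the human line, with no overlap between groups in either. Of all tested genes, 48.3% lay wholly lower and 17.9% wholly higher in the EMT6 knockout. In the MDA-MB-231 knockout these shares were 22.9% and 17.2%. GAS6 stood at 1.54 in EMT6 and at 0.00 in the human line. The levels differed as well: GAS6 ranked above 16.9% of tested genes in wild-type EMT6 and above 86.0% in wild-type MDA-MB-231, whereas AXL ranked above 94.5% and 93.3%. The difference between lines was not tested, because the EMT6 values had served to choose the genes and the tables are of different species.

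The genes around these factors were then read in EMT6 from 7 lists of 77 genes, of which 55 passed the filter. Limma called 10 higher and 29 lower, and the median log2 difference was -0.28, against -0.21 over all tested genes, of which 14.5% were called higher and 42.3% lower. Median-ratio scaling turned this into 17 higher and 20 lower, and removal of a smooth trend of the differences on exon length into 14 and 19. Over all tested genes median-ratio scaling called 3563 higher and 3439 lower of 13501. With the length trend removed 3124 were called higher and 3589 lower of 13487. Without knockout replicates 1 or 3 the higher calls numbered 5 and 4. All adjusted p-values in the following paragraphs are limma's over 13499 genes. The lists were chosen with earlier results of these data known. Their counts, calls and p-values are therefore a description, and no list was tested as a set.

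Of 15 tested angiogenic ligands, 3 were called higher and 6 lower, with a median of -0.09, and median-ratio scaling gave 6 higher and 3 lower of 14. Removal of the length trend gave 3 higher and 2 lower. The higher calls numbered 1 of 14 tested without knockout replicate 1 or 3, and the lower calls 3 of 13 tested without wild-type replicate 1 or 2. Adm, the vasodilator peptide adrenomedullin, rose to 10.2 TPM in the knockout, against 2.57 TPM in wild type (log2 difference 1.66, adjusted p = 0.000201). Angptl6 had 0.652 TPM in the knockout and 0.333 TPM in wild type and was also called higher (0.31, adjusted p = 0.0105). Only its knockout libraries reached the filter of 0.5 TPM, so this call rests on a low gene admitted by its higher group. Pgf, placental growth factor, fell to 0.233 TPM in the knockout, against 1.9 TPM in wild type (-1.23, adjusted p = 0.000253), and Pdgfc, a PDGF ligand, to 7.79 TPM, against 18.5 TPM (-1.15, adjusted p = 0.000392). Pgf passed the filter through its wild-type libraries alone. Pdgfa made up 75.6 ± 2.96% of PDGF family TPM in the knockout and 58.8 ± 3.58% in wild type (SD, n = 3 each).

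Among 6 tested receptors for these ligands, 5 were called lower and 0 higher, with a median of -0.28. By unadjusted limma p under 0.05 the number higher was also 0. Under median-ratio scaling 2 were called lower and 0 higher, and with the length trend removed 3 lower and 1 higher. With no filter, 6 of 13 were called lower and 1 higher. Nrp1, a co-receptor of VEGF and semaphorins, fell to 4.35 TPM in the knockout, against 16.2 TPM in wild type (-1.69, adjusted p = 0.000194). Pdgfra, a PDGF receptor, fell to 2.18 TPM, against 4.83 TPM (-0.87, adjusted p = 0.00112). The VEGF receptor Kdr was listed at 0 in all 6 libraries.

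Of 10 tested inhibitors of angiogenesis, 7 were called lower and 1 higher, with a median of -0.50, and median-ratio scaling gave 5 lower and 2 higher. With the length trend removed 5 were called lower and 2 higher, with a median of -0.30. Thbs2, a thrombospondin, fell to 5.98 TPM in the knockout, against 11.6 TPM in wild type (-0.85, adjusted p = 0.000289). Col18a1, the collagen from which endostatin is cut, fell to 17.5 TPM, against 31.0 TPM (-0.79, adjusted p = 0.000348). Cxcl10, an interferon-induced chemokine, rose to 1.67 TPM in the knockout, against 0.259 TPM in wild type (1.07, adjusted p = 0.00141). When any 1 knockout library was left out it no longer passed the filter, leaving 0 higher calls of 9 tested.

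In the list of PEDF receptors and partners, 1 of 4 tested genes was called higher and 2 lower, with a median of -0.31. Lrp6, a Wnt co-receptor, fell to 3.3 TPM in the knockout, against 6.88 TPM in wild type (-0.87, adjusted p = 0.000475), and the collagen chaperone Serpinh1 fell by 0.46 on the log2 scale (adjusted p = 0.000538). Rpsa, the laminin receptor and ribosomal protein, was called higher (0.13, adjusted p = 0.0366), a call lost in 7 of 14 settings, among them leaving out any knockout library or wild-type replicate 2. Pnpla2, a lipase also described as a PEDF receptor, had 7.53 TPM in the knockout and 8.52 TPM in wild type and was not called.

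In the TAM receptor system 3 of 10 tested genes were called higher and 4 lower, with a median of -0.27, and median-ratio scaling gave 4 higher and 3 lower. With the length trend removed 2 were called higher and 3 lower, with a median of -0.02. Pros1, protein S, another TAM ligand, rose to 10.4 TPM in the knockout, against 7.06 TPM in wild type (0.50, adjusted p = 0.00243), as did Lgals3, galectin-3, with 645.5 TPM in the knockout and 422.2 TPM in wild type (0.61, adjusted p = 0.000506). Ggcx, the carboxylase that modifies GAS6 and protein S, fell to 3.35 TPM, against 8.08 TPM (-1.07, adjusted p = 0.00172). Adam17, a protease that sheds surface receptors, fell to 13.2 TPM, against 31.0 TPM (-1.18, adjusted p = 0.00049). Of the other receptors, Mertk was listed at 0 in all 6 libraries, and Axl made up 94.7 ± 0.787% of TAM receptor TPM in the knockout and 97.2 ± 0.276% in wild type (SD, n = 3 each).

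Of 7 tested genes of oxygen sensing, 4 were called lower and 1 higher, with a median of -0.42, and median-ratio scaling gave 4 lower and 3 higher. With the length trend removed 3 were called lower and 3 higher, with a median of -0.09. Egln3, a prolyl hydroxylase, fell to 0.0741 TPM in the knockout, against 5.7 TPM in wild type (-2.64, adjusted p = 1.06e-05). It passed the filter through its wild-type libraries alone. Hif1a, the regulated subunit of the factor, fell to 17.8 TPM, against 41.4 TPM (-1.17, adjusted p = 0.00156). Egln2, another prolyl hydroxylase, rose (0.25, adjusted p = 0.0194), a call lost without knockout replicates 2 or 3, with 0 higher calls in the list without replicate 3. In the PPAR and lipase list, 3 of 7 genes were tested. Plin2, a lipid droplet coat protein, rose to 363.8 TPM, against 206.5 TPM (0.81, adjusted p = 0.000119). Ppard, a PPAR factor, fell to 5 TPM, against 11.2 TPM (-1.02, adjusted p = 0.000223), and Cpt1a, a carnitine palmitoyltransferase, was not called (-0.19, adjusted p = 0.0617). Of these 3 genes 1 was called higher and 1 lower, with a median of -0.19. With the length trend removed 2 were called higher, and without wild-type replicate 3 there were 2 called lower.

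**Figure D4:**
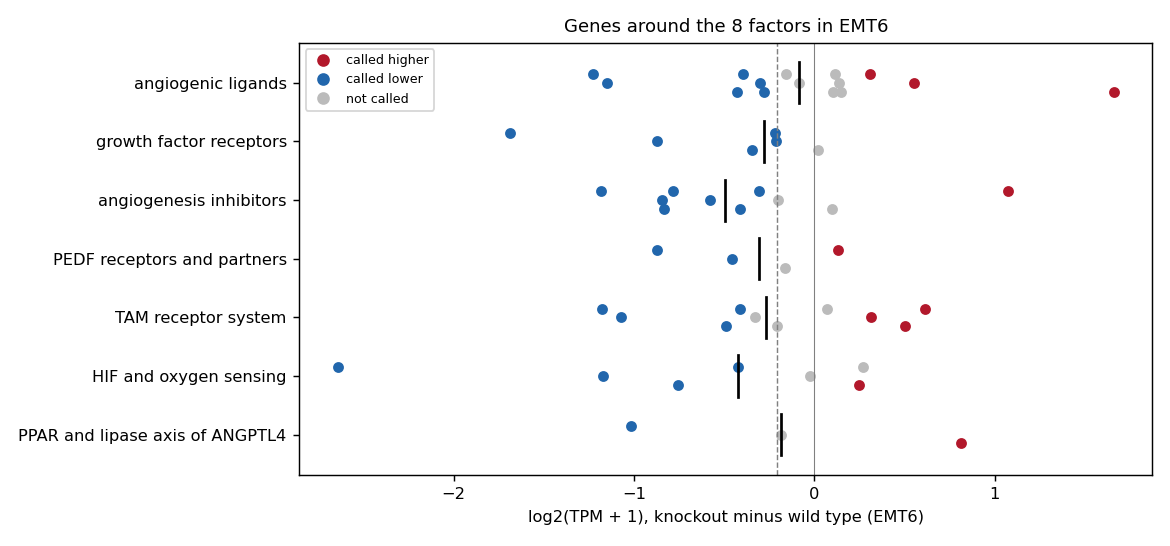
Difference in log2(TPM + 1), knockout minus wild type in EMT6, for each tested gene of the 7 lists (red called higher, blue called lower, grey not called). Black bars are list medians and the dashed line is the median of all tested genes, -0.21.

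TPM keeps no read depth, so depth is unknown. Genes at 1 TPM or more numbered 11871 to 12015 in EMT6 knockout and 12350 to 12426 in EMT6 wild-type libraries. The human line had 13038 to 13338 such genes in the knockout and 13423 to 13593 in wild type. The markers of mammary carcinoma lines differed between the EMT6 groups in both directions. Krt8 (534.8 TPM in the knockout, 481.9 TPM in wild type; limma adjusted p = 0.0302) and Vim (3292 TPM in the knockout, 2711 TPM in wild type; 0.00253) were called higher. Krt14 had 3.94 TPM in the knockout and 36.5 TPM in wild type (limma adjusted p = 1.06e-05) and was called lower. Krt18 (15.5 TPM in the knockout, 36.3 TPM in wild type; 0.000368) and Krt19 (0.0177 TPM in the knockout, 1.95 TPM in wild type; 6.6e-05) were called lower as well. Krt19 passed the filter through its wild-type libraries alone. Epcam and Cdh1 were below 1 TPM in all libraries. Of 8 endothelial markers none reached a mean of 1 TPM in either group, and their sum was 0.241 to 1.44 TPM in the knockout and 0.296 to 0.372 TPM in wild type. The highest sum came from Esam in knockout replicate 2, at 1.36 TPM, against 0.0221 and 0.0750 TPM in knockout replicates 1 and 3. Leukocyte markers summed to 82.9 to 87.7 TPM in the knockout and 50 to 54.2 TPM in wild type, from 3 of 7 genes at 1 TPM or more, with Ptprc at 0.00409 TPM or less. Cd68 had 56.1 TPM in the knockout and 23.9 TPM in wild type, and Cd14 had 23.7 TPM in the knockout and 25.3 TPM in wild type. Fibroblast and pericyte markers summed to 7.24 to 7.75 TPM in the knockout and 9.51 to 10.3 TPM in wild type, with Lum listed at 0. Within them Dcn was called higher (2.52 TPM in the knockout, 0.412 TPM in wild type; limma adjusted p = 0.000156), and Pdgfra, Pdgfrb and Cspg4 were called lower. Dcn passed the filter through its knockout libraries alone. The part of all these markers in the differences above was not tested.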

How the data were processed

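Per the submitters' processing notes, the authors worked with the builds GRCh38.p7 and mm10 and with Subread 1.6.4, featureCounts, TopHat2 2.1.1 and CASAVA 1.8.2. Nothing states their settings, the strand option or the annotation release. Values deposited by the authors are TPM, in 1 table per line. Read numbers cannot be recovered from them, so no interval from counting is given, and low values may rest on few reads.

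R 4.3.3 and limma 3.58.1 served to fit each line alone, with a mean-variance trend and no covariate, on log2(TPM + 1), which understates changes of low genes. Tested genes reached 0.5 TPM in 3 or more of the 6 libraries. Adjusted p is Benjamini-Hochberg over all tested genes, called at 0.05. The fit was tested on simulated data with 200 changed genes. That simulation held no shift of the median like that in EMT6, so it does not check calls that move with scaling. Ratios and exact tests used Python 3.11.15 and scipy 1.17.1. Mouse names and positions are from GENCODE M21, which matched 54097 of 54331 identifiers. Human genes were paired with names by the identifiers that define the set.

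The members and lists were chosen with earlier results of these data known. From each list the text names every gene where 5 or fewer were tested, otherwise up to 2 per direction with the smallest adjusted p. It also names the 3 genes most alike in profile to Serpinf1 and Gas6 among those with an established symbol, and nearest tested neighbours. For the human genes alike in profile, no symbol was at hand, so none is named. Genes sharing exons with a member, other family members, genes listed at 0 and single markers were named outside this rule, after their values were seen. Alternatives were median-ratio scaling (genes above 0 in every library with a mean of at least 1 TPM), no filter, a filter of 1 TPM, a pseudocount of 0.1, no trend, a replicate block and leaving out each library. Removal of the exon length trend in EMT6 (lowess span 0.3 over protein-coding genes) was chosen after seeing the data.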

Additional observations from a re-analysis of the deposited data

Results flagged for a closer look

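VEGFC was flagged because the knockout libraries lay on opposite sides of wild type in the 2 lines, with no overlap between groups in either. Of all tested genes, 17.9% lay wholly higher in the EMT6 knockout and 22.9% wholly lower in the MDA-MB-231 knockout. The EMT6 values had also served to choose the gene. The log2 difference was 0.39 for Vegfc in EMT6 and -0.52 for VEGFC in MDA-MB-231. The difference between the lines was not tested.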

How the results depend on the processing

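In MDA-MB-231 the 3 lower calls among these genes became 0 with a replicate block (adjusted p = 0.0507 for VEGFC, 0.102 for VEGFA and 0.0836 for AXL), 2 with no filter, and 1 to 3 without 1 library, with 1 left (VEGFC) without knockout replicate 2, wild-type replicate 1 or wild-type replicate 3. The block rests on shared numbers only: the deviations of same-numbered libraries had correlations of 0.0017, 0.114 and -0.127 in MDA-MB-231 and 0.0647, -0.0175 and 0.0728 in EMT6, and not every library correlated best with its own number. Over all MDA-MB-231 genes, 1220 higher and 1845 lower calls became 534 and 1030 with the block, and 515 to 1071 and 708 to 1458 without 1 library. In EMT6, 1954 higher and 5705 lower calls became 3563 and 3439 under median-ratio scaling, 3124 and 3589 after removing the trend on length, and 1412 to 1844 and 4766 to 5244 without 1 library. For the 7 lists, 10 higher and 29 lower calls became 17 and 20 when rescaled by median ratios, 14 and 19 after removing that trend, and 4 to 8 and 22 to 27 without 1 library, with 5 and 4 higher without knockout replicates 1 and 3. Of the EMT6 genes described, 4 lay wholly lower in TPM, 3 under median-ratio scaling, and 4 or 5 without 1 library, and 2 lay wholly higher in each. Fgf2 ranged from -0.48 to 0.63 without 1 library, with both signs. The cause of these changes was not tested. Unknown depth limits the reading of SERPINF1, ANGPTL4 and FGF2 in MDA-MB-231.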
